A study of Mus musculus with 6 samples.

Results

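The 10 genes described here mark the epicardium, the mesothelial sheet that covers the heart, or mesothelium in general: Krt8, Krt18, Krt19, Msln, Upk3b, Upk1b, Wt1, Lrrn4, Tbx18 and Aldh1a2. They were chosen with earlier results of these data known and taken by symbol from the 26835 genes of the deposited table. Each symbol stood on 1 row, and all 10 were measured in all 6 libraries. The data are messenger RNA from mouse hearts, 2 libraries in each of 3 groups. The CFZ_EA group received carfilzomib at 8 mg/kg by intraperitoneal injection and electroacupuncture at the PC6 acupoint, the CFZ group received carfilzomib at 8 mg/kg by the same route, and the control group was injected with 10% DMSO. Carfilzomib is an irreversible proteasome inhibitor used against multiple myeloma. All mice were C57BL/6 of 7 to 8 weeks and about 20 g, with a genotype that the labels write as "wide type", taken here as wild type, and days 0, 2, 4 and 6 are listed for every group. None of these groups received electroacupuncture alone. The region of the heart and the origin of the replicates, from 1 mouse or from several, are not in the labels, so the p-values reflect the spread of the deposited libraries and that spread may be technical.

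In the adult heart the epicardium is a thin layer of flat cells with epithelial features. Its cells hold the keratins of simple epithelia and carry surface proteins shared with the linings of the lung and the abdominal cavity. In the embryo it releases retinoic acid and sheds cells that become fibroblasts and mural cells, under transcription factors that include Wt1 and Tbx18. The proteasome, the target of carfilzomib, degrades proteins in every cell type.

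All 10 genes were lower in CFZ hearts than in control hearts by their fitted fold change, with a median log2 fold change of -2.69, against -0.01 over the 15690 genes tested, of which 51.3% were lower. Krt8, Krt19 and Upk1b had the lowest values and Wt1 the one closest to 0. None of the 10 passed an adjusted p of 0.05 in edgeR's quasi-likelihood test, in any of the 3 comparisons. In CFZ_EA hearts all 10 were also lower than in control hearts (50.3% of all tested genes were), with a median of -2.04, and 8 of the 10 were higher than in CFZ hearts (48.9% of all tested genes were), with a median of 0.98. These comparisons share libraries and are not independent of each other.

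Levels are given as FPKM, the authors' abundance scaled by transcript length and library size. Counts totalled 50013990 to 75742448 per library, and all 10 genes passed the filter on low values, a mean of at least 20 counts over the 6 libraries, with means from 134.5 counts for Wt1 to 1225.5 for Upk3b. One control library stood apart before any result is read: on the first principal component of all tested genes, with 35.4% of the variance, control replicate 2 lay at 75.4 and the other libraries between -35.7 and 2.99. Each of the 10 genes was highest in control replicate 2, at 1.55 times (Wt1) to 4.53 times (Aldh1a2) its level in control replicate 1. The fitted differences from control are therefore also given without that library, after those of the 6 libraries.

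The upstream sequences of Upk3b, Tbx18 and Aldh1a2 are shown to set a surface gene with a large difference between CFZ and control beside a transcription factor and an enzyme of the same tissue layer. Each is the 250 bases before the RefSeq start of the gene on GRCm38.p6, read 5′ to 3′ on the gene's own strand, and in these 3 the window ends where the gene span of the deposited table begins. The positions are chr5:136038246-136038495 on the plus strand for Upk3b, chr9:87731261-87731510 on the minus strand for Tbx18 and chr9:71215539-71215788 on the plus strand for Aldh1a2. Capitals mark matches to the searched motifs.
Upk3b: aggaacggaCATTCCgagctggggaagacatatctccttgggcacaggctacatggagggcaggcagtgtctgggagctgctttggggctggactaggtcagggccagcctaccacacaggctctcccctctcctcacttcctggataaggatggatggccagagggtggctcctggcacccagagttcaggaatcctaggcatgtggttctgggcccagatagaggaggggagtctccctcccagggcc
Tbx18: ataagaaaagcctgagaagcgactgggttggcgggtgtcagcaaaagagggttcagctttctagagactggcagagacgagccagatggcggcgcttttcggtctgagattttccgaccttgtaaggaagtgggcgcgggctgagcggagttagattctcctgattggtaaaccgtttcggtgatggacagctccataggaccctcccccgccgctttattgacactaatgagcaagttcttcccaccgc
Aldh1a2: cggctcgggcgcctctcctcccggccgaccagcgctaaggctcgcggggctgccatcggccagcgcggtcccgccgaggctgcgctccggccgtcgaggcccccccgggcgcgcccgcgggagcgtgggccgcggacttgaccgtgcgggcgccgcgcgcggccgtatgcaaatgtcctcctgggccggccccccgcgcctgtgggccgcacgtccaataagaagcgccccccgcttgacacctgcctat

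RefSeq windows were matched for 6 of the 10 genes, the other 3 being Krt8, Krt18 and Lrrn4. The Aldh1a2 window was 77.6% G and C, above the 95th percentile of 73.6% over 32851 promoter windows, while Upk3b had 60.8%, Tbx18 54.0% and the median window 52.4%. Aldh1a2 held 40 CG pairs, Tbx18 15 and Upk3b 2. The motifs searched, on both strands, were TATAA, the core of the TATA box; GGGCGG, the GC box; TGANTCA, the AP-1 motif; and GGAATG, the core bound by TEAD factors. GGAATG lay in 2 of the 6 windows, those of Upk3b, at 241 to 236 bases before the start on the other strand, and Lrrn4, at 196 to 191 bases, and in 12.6% of all windows. TATAA lay in 1 of the 6, Krt18, at 19 to 15 bases before the RefSeq start, and in 22.8% of all windows. GGGCGG and TGANTCA were in none of the 6, against 32.7% and 6.75% of all windows. A match is a string of letters in this window and not a measured site.

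The keratins include the genes with the 2 largest differences, Krt8 and Krt19. Krt8 and Krt18, the type II and type I keratins that pair into the filaments of simple epithelia, lie next to each other on chromosome 15 of GRCm38, at chr15:101996698-102004482 on the minus strand and chr15:102028180-102032027 on the plus strand. They are 23697 bases apart, with no GENCODE gene between them. Krt8 measured 0.240 and 0.624 FPKM in CFZ_EA hearts and 0.108 and 0.131 FPKM in CFZ hearts, against 1.58 and 5.60 FPKM in control hearts. No 2 groups overlapped for Krt8, with control at the top and CFZ at the bottom. The Krt8 values rest on few counts outside control, 34 and 102 in CFZ_EA and 16 and 18 in CFZ, against 194 and 603 in control. Its log2 fold change in CFZ against control was -4.71 ± 0.78 (SE, n = 2 libraries each), with an adjusted p of 0.512 in edgeR's quasi-likelihood test. Krt8 overlaps the antisense transcript Gm36026, and reads of the pair cannot be told apart where counting ignored strand, which the sources used here do not give.

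Krt18 measured 0.308 and 1.43 FPKM in CFZ_EA hearts and 0.533 and 0.296 FPKM in CFZ hearts, against 2.05 and 5.51 FPKM in control hearts. The CFZ_EA libraries lay on either side of CFZ replicate 1, so these groups overlapped, while control lay above both. In CFZ against control its log2 fold change was -3.05 ± 0.82 (adjusted p = 0.561, edgeR). Krt19, a further type I keratin, lies at chr11:100140810-100146120 on the minus strand. Krt19 measured 0.598 and 1.84 FPKM in CFZ_EA hearts and 0.484 and 0.303 FPKM in CFZ hearts, against 4.49 and 12.7 FPKM in control hearts. As for Krt8, the 3 groups did not overlap and CFZ was lowest. In CFZ against control it had a log2 fold change of -4.30 ± 0.71 (adjusted p = 0.512, edgeR).

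**Figure D1:**
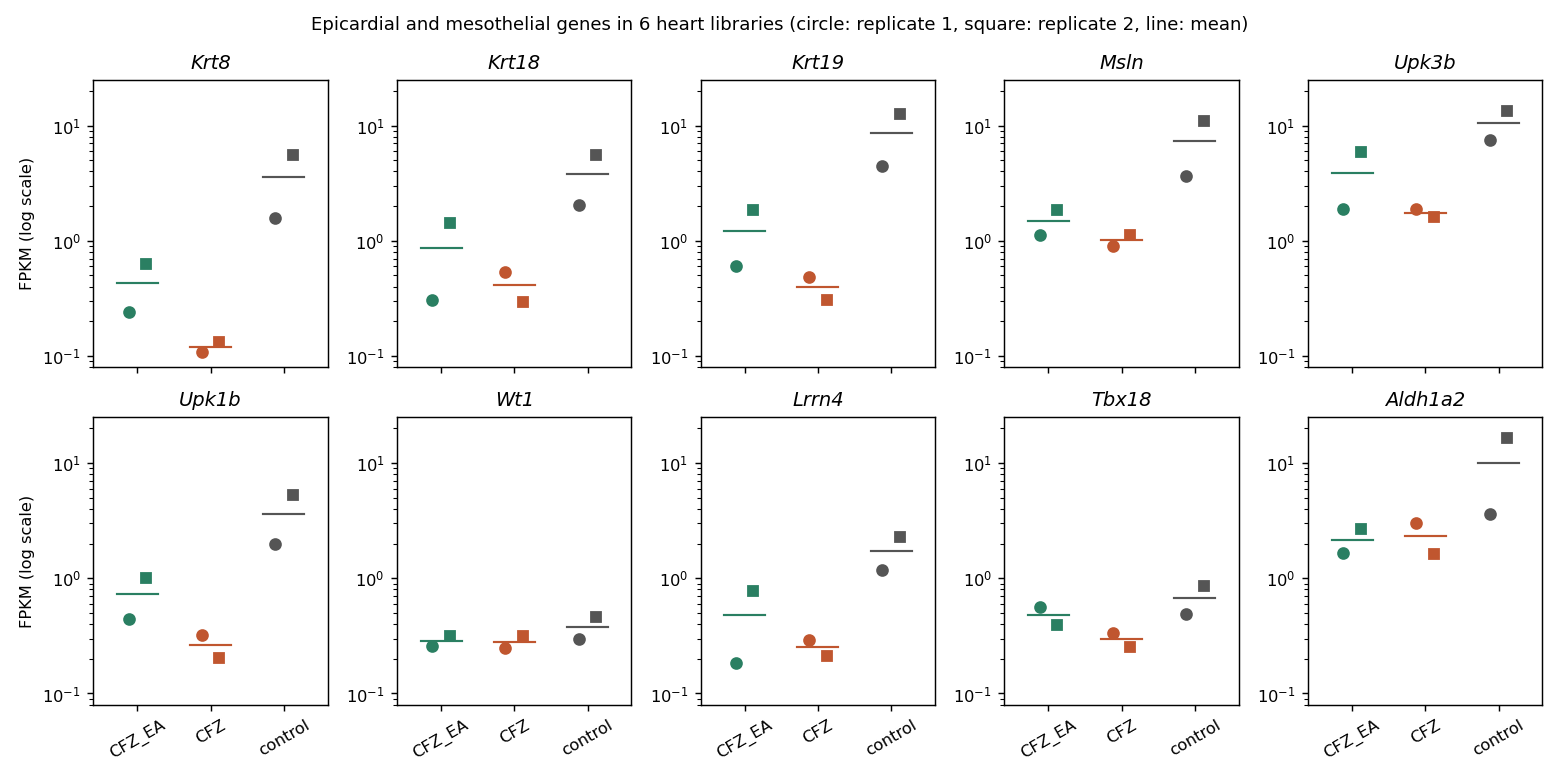
FPKM of each of the 10 genes (log axis) in the CFZ_EA, CFZ and control groups, with 1 point per library and a line at the mean of 2 libraries. Control replicate 2 is the highest point in every panel, and Wt1 spans 0.246 to 0.462 FPKM while Krt8 spans 0.108 to 5.60 FPKM.

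Among the surface genes, Upk3b had the highest mean level of all 10, at 5.38 FPKM over the 6 libraries. Upk3b, a uroplakin first known from the bladder lining and a marker of mesothelium, lies at chr5:136038496-136046487 on the plus strand. Upk3b measured 1.90 and 5.91 FPKM in CFZ_EA hearts and 1.88 and 1.59 FPKM in CFZ hearts, against 7.56 and 13.4 FPKM in control hearts. CFZ_EA replicate 1 was at the level of the CFZ libraries and CFZ_EA replicate 2 stood 3.11 times higher. The difference between CFZ and control was a log2 fold change of -2.48 ± 0.54 (adjusted p = 0.561, edgeR). Upk1b, a tetraspanin that partners uroplakins at the membrane, lies at chr16:38773184-38800328 on the minus strand. Upk1b measured 0.446 and 1.0 FPKM in CFZ_EA hearts and 0.324 and 0.201 FPKM in CFZ hearts, against 1.99 and 5.28 FPKM in control hearts. Its 3 groups did not overlap, and its log2 fold change in CFZ against control was -3.64 ± 0.62 (adjusted p = 0.512, edgeR).

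Msln encodes mesothelin, a lipid-anchored glycoprotein of mesothelial cells, at chr17:25748613-25754377 on the minus strand. Msln measured 1.13 and 1.85 FPKM in CFZ_EA hearts and 0.902 and 1.12 FPKM in CFZ hearts, against 3.67 and 11.0 FPKM in control hearts. The CFZ_EA and CFZ values met at 1.13 and 1.12 FPKM without crossing, and both control libraries were higher. Its CFZ against control log2 fold change was -2.71 ± 0.51 (adjusted p = 0.561, edgeR). Lrrn4, a leucine-rich repeat membrane protein used as a mesothelial marker, lies at chr2:132868305-132880891 on the minus strand. Lrrn4 measured 0.184 and 0.772 FPKM in CFZ_EA hearts and 0.294 and 0.211 FPKM in CFZ hearts, against 1.19 and 2.29 FPKM in control hearts. The 2 CFZ_EA libraries enclosed both CFZ libraries, and control lay above all 4. In CFZ against control the log2 fold change was -2.66 ± 0.69 (adjusted p = 0.561, edgeR).

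In CFZ against control, the transcription factors Wt1 and Tbx18 and the enzyme Aldh1a2 differed less than the keratins and surface genes, and Wt1 least. Wt1, a zinc finger transcription factor of the epicardium that some endothelial cells of the heart also express, lies at chr2:105126529-105173616 on the plus strand. Wt1 measured 0.261 and 0.312 FPKM in CFZ_EA hearts and 0.246 and 0.313 FPKM in CFZ hearts, against 0.298 and 0.462 FPKM in control hearts. All 3 groups overlapped. Its log2 fold change in CFZ against control was -0.31 ± 0.35, an interval of -1.01 to 0.39 at 2 SE (adjusted p = 0.802, edgeR). That interval lies above the estimates of the 3 keratins and the 4 surface genes, although the difference between genes was not tested.

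Tbx18, a T-box transcription factor of the epicardium that mural cells also express, lies at chr9:87702800-87731260 on the minus strand. Tbx18 measured 0.562 and 0.394 FPKM in CFZ_EA hearts and 0.338 and 0.254 FPKM in CFZ hearts, against 0.490 and 0.856 FPKM in control hearts. CFZ lay below both other groups, and CFZ_EA and control overlapped. Its log2 fold change in CFZ against control was -1.06 ± 0.37 (adjusted p = 0.561, edgeR). Aldh1a2, the enzyme that makes retinoic acid from retinal in the epicardium, lies at chr9:71215789-71296243 on the plus strand. Aldh1a2 measured 1.66 and 2.67 FPKM in CFZ_EA hearts and 3.00 and 1.64 FPKM in CFZ hearts, against 3.62 and 16.4 FPKM in control hearts. CFZ_EA and CFZ overlapped, and control replicate 1 stood just above them while control replicate 2 stood far above. Its log2 fold change in CFZ against control was -1.98 ± 0.66 (adjusted p = 0.561, edgeR), and -0.64 without control replicate 2 (adjusted p = 0.964). Tbx18 and Aldh1a2 also overlap other annotated transcripts on the opposite strand, D030062O11Rik and Gm48124.

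Set against all genes, the 10 were lower in CFZ more often and further than the table as a whole. They were chosen with earlier results of these data known, so the shares below are a description and no test of the set. Of the 10, 0 were called lower at an adjusted p under 0.05 in edgeR, where 3 of 15690 genes were called lower (0.0191%) and 1 higher. At an unadjusted p under 0.05, 9 of the 10 were lower in CFZ, all but Wt1, against 6.55% of all tested genes. The CFZ and control libraries did not overlap, with CFZ lower, in the same 9 genes, against 25.8% of all tested genes. An exact permutation test of 2 against 2 libraries cannot give a two-sided p below 0.333, so single genes were tested only in the fit across all genes. DESeq2 on the same counts called 7 of the 10 lower in CFZ: Krt8 (adjusted p = 9.9e-08), Krt19 (1.3e-08), Upk1b (1.7e-06), Msln (3.1e-05), Upk3b (0.000294), Lrrn4 (0.0125) and Krt18 (0.0133). It called 1.03% of all tested genes lower.

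Single control libraries moved these values. Without control replicate 2, all 10 genes were still lower in CFZ (median log2 fold change -2.17), 7 of them at an unadjusted p under 0.05, against 3.38% of all tested genes. The log2 fold change was then -3.66 for Krt8, -3.49 for Krt19, -2.29 for Krt18, -2.90 for Upk1b, -2.11 for Upk3b, -2.23 for Lrrn4 and -1.84 for Msln. It was -0.71 for Tbx18 and -0.05 for Wt1, so with Aldh1a2 at -0.64 these genes lay closest to 0. The adjusted p ran from 0.456 for Krt8 to 0.994 for Wt1 in edgeR. Without control replicate 1, edgeR called 5 of the 10 lower: Krt8 (adjusted p = 0.0257), Krt19 (0.0343), Msln (0.0212), Upk1b (0.0329) and Aldh1a2 (0.0423), against 2.05% of all tested genes. None of these 5 passed without control replicate 2. Each of these fits has 1 control library, which is assumed to vary like the libraries of the other groups.

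**Figure D2:**
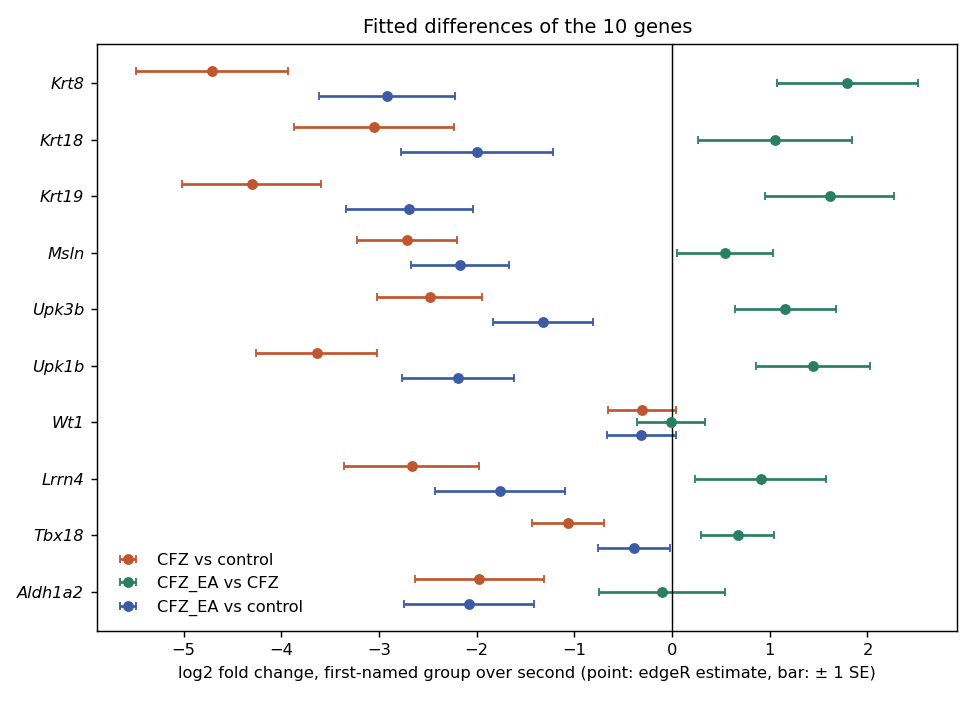
Log2 fold change of each gene in CFZ against control, CFZ_EA against CFZ and CFZ_EA against control, as fitted by edgeR, with bars of 1 SE (2 libraries per group). Against control, every estimate is below 0, from -4.71 for Krt8 in CFZ to -0.31 for Wt1; in CFZ_EA against CFZ they run from -0.10 for Aldh1a2 to 1.80 for Krt8.

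In hearts given electroacupuncture along with carfilzomib, the keratins and surface genes lay between the other groups by their means. Against CFZ, the log2 fold change in CFZ_EA was 1.80 ± 0.73 for Krt8, 1.61 ± 0.66 for Krt19, 1.45 ± 0.58 for Upk1b and 1.16 ± 0.52 for Upk3b (SE, n = 2 libraries each). It was 1.06 ± 0.79 for Krt18, 0.91 ± 0.67 for Lrrn4, 0.67 ± 0.37 for Tbx18 and 0.54 ± 0.49 for Msln. Wt1, at -0.01 ± 0.35, and Aldh1a2, at -0.10 ± 0.64, were the 2 genes not higher. The adjusted p was 0.999 for all 10 in edgeR. Of the 10, 0 were called higher, against 0.0127% of all tested genes, and 3 were higher at an unadjusted p under 0.05, against 2.62%. DESeq2 called 0 of the 10, against 0.421% of all tested genes called higher. In 6 of the 10 the libraries did not overlap with CFZ_EA higher, against 18.9% of all tested genes. Among these, Upk3b and Msln were barely apart. Their nearest CFZ_EA and CFZ values were 1.90 and 1.88 FPKM for Upk3b and 1.13 and 1.12 FPKM for Msln.

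The higher values rested mainly on CFZ_EA replicate 2. Relative to CFZ_EA replicate 1 it held 0.702 times (Tbx18) to 4.64 times (Krt18) as much, and all but Tbx18 were higher in it. Without CFZ_EA replicate 2 the median log2 fold change of the 10 was 0.13, with 6 higher and 4 lower, and Krt18 and Lrrn4 turned to -0.44 and -0.47. Without CFZ_EA replicate 1 it was 1.69, with all 10 higher. Of the 10, 6 were higher at an unadjusted p under 0.05 without CFZ_EA replicate 1, against 3.44% of all tested genes, and 0 without CFZ_EA replicate 2, against 1.15%.

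Against control, the log2 fold change in CFZ_EA was -2.92 ± 0.70 for Krt8, -2.69 ± 0.65 for Krt19, -2.0 ± 0.78 for Krt18, -2.19 ± 0.57 for Upk1b and -2.17 ± 0.50 for Msln. It was -2.08 ± 0.66 for Aldh1a2, -1.76 ± 0.66 for Lrrn4, -1.32 ± 0.51 for Upk3b, -0.39 ± 0.37 for Tbx18 and -0.31 ± 0.35 for Wt1. The adjusted p in edgeR was 0.844 for 8 of the 10, 0.876 for Tbx18 and 0.900 for Wt1. In edgeR 0 of 15690 genes (0%) were called in this comparison and 853 had an unadjusted p under 0.05, while DESeq2 called 65. The 8 genes other than Wt1 and Tbx18 were lower without overlap between the libraries, against 22.6% of all tested genes, and lower at an unadjusted p under 0.05, against 3.91%. DESeq2 called 4 of the 10 lower, Krt8 (adjusted p = 0.00977), Krt19 (0.00599), Msln (0.00548) and Upk1b (0.0493), against 0.191% of all tested genes. Without control replicate 1, edgeR called Msln lower (adjusted p = 0.0391), against 1.15% of all tested genes. Without control replicate 2 the median of the 10 was -1.26, with Krt8 at -1.85, Krt19 at -1.87, Msln at -1.29 and Aldh1a2 at -0.74 (edgeR), and without control replicate 2 and CFZ_EA replicate 2 together Tbx18 turned to 0.20.

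Ratios within a library leave out its depth, and those between the 10 genes were not constant. Krt19 was 2.29 and 5.90 times the FPKM of Wt1 in CFZ_EA hearts and 1.97 and 0.968 times in CFZ hearts, against 15.1 and 27.4 times in control hearts. Upk3b was 7.28 and 18.9 times Wt1 in CFZ_EA hearts and 7.63 and 5.09 times in CFZ hearts, against 25.4 and 29.1 times in control hearts. Msln was 4.34 and 5.93 times Wt1 in CFZ_EA hearts and 3.66 and 3.57 times in CFZ hearts, against 12.3 and 23.8 times in control hearts. For these 3 genes both control libraries lay above the other 4, also with control replicate 1 alone.

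Among the keratins and uroplakins themselves the ratios differed less. Krt19 over Krt18 was 1.94 and 1.29 in CFZ_EA hearts and 0.909 and 1.02 in CFZ hearts, against 2.19 and 2.29 in control hearts. Krt8 over Krt18, its filament partner, was 0.780 and 0.436 in CFZ_EA hearts and 0.202 and 0.444 in CFZ hearts, against 0.768 and 1.02 in control hearts. Upk3b over Upk1b ran the other way, at 4.26 and 5.89 in CFZ_EA hearts and 5.80 and 7.91 in CFZ hearts, against 3.79 and 2.55 in control hearts. Thus Upk1b was the uroplakin with the lower share in CFZ, in both libraries. No test was run on the ratios.

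**Figure D3:**
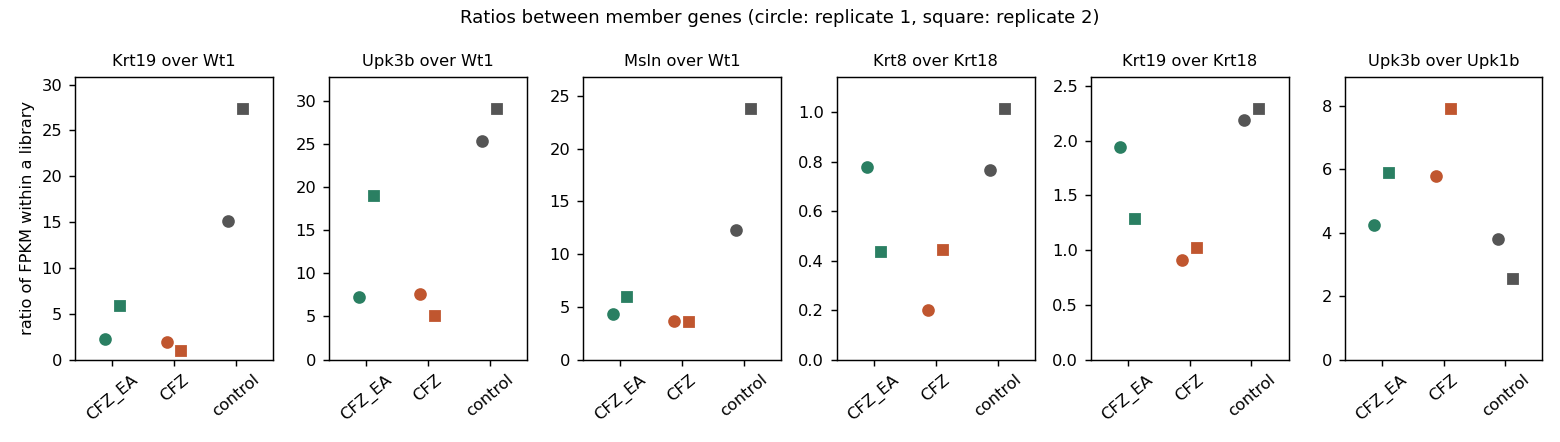
Ratio of the FPKM of 2 genes within each library (linear axes from 0), for CFZ_EA, CFZ and control, with 1 point per library. In the 3 panels over Wt1 both control libraries lie above the other 4, and in the panel of Upk3b over Upk1b they lie below them, at 3.79 and 2.55.

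The 10 genes followed each other to different degrees over the 6 libraries. Pearson's r of each gene with the mean profile of the 10 was 0.995 for Krt19, 0.992 for Upk1b and 0.990 for Krt8, and from 0.973 to 0.981 for Krt18, Msln, Upk3b and Lrrn4. That profile includes the gene itself, which raises its r. Aldh1a2 followed at 0.898, Tbx18 at 0.770 and Wt1 at 0.719. The 6 other genes with the most similar profile were Plpp5 (r = 0.998), Efs (0.987), Shisa5 (0.984), C1qtnf7 (0.984), Igfbp6 (0.983) and C2 (0.982), over 6 libraries and among genes averaging 1 FPKM or more. These values describe libraries that share their group and in which control replicate 2 is highest throughout, so no p is given. C1qtnf7 and C2 met the average of 1 FPKM only through control, at 1.22 and 1.87 FPKM for C1qtnf7 and 1.23 and 3.48 FPKM for C2. Both lay below 1 FPKM in every CFZ_EA and CFZ library, so that filter favours genes high in control. Shisa5 measured 10.9 and 13.4 FPKM in CFZ_EA hearts and 12.1 and 9.81 FPKM in CFZ hearts, against 15.3 and 20.0 FPKM in control hearts. Plpp5, a lipid phosphatase, measured 2.20 and 2.47 FPKM in CFZ_EA hearts and 2.23 and 1.99 FPKM in CFZ hearts, against 2.79 and 3.54 FPKM in control hearts. Both were highest in control replicate 2 and lowest in CFZ replicate 2.

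Other genes listed as epicardial and mesothelial markers were lower in CFZ as well. Of 21 such genes 18 passed the filter on low counts, and all 18 were lower in CFZ than in control (median log2 fold change -1.73), with 0 called in edgeR. The CFZ libraries lay below both control libraries in 16 of the 18, against 25.8% of all tested genes. At an unadjusted p under 0.05 in edgeR, 13 were lower, against 6.55%. This list too was chosen with earlier results known, and no fit without control replicate 2 is given for it. The list shares genes with others used below. Tcf21 is also among the transition factors and the fibroblast markers, Pdpn among the lymphatic markers and Aldh1a1 in the retinoic acid list. Highest in mean level of the 18 were C3, Igfbp6, Ezr and Ptgis. C3, the central complement component, measured 24.3 and 28.2 FPKM in CFZ_EA hearts and 14.6 and 21.3 FPKM in CFZ hearts, against 29.4 and 174.3 FPKM in control hearts. Igfbp6, a binding protein of insulin-like growth factors, measured 14.9 and 22.6 FPKM in CFZ_EA hearts and 11.3 and 12.4 FPKM in CFZ hearts, against 27.6 and 59.1 FPKM in control hearts. Igfbp6 kept the groups apart with either control library, whereas C3 in control replicate 1 was just above CFZ_EA.

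The log2 fold change in CFZ against control was -2.35 ± 0.72 for C3, -1.75 ± 0.36 for Igfbp6 and -1.42 ± 0.50 for Ptgis, the prostacyclin synthase (adjusted p = 0.561 each, edgeR). Ezr, the membrane linker ezrin, was at -0.11 ± 0.20 (adjusted p = 0.885). DESeq2 called 9 of the 18 lower in CFZ, against 1.03% of all tested genes. They were Muc16, Nkain4, Gpm6a, Rspo1, Dmkn, Krt7, Slpi, Igfbp6 and Pdpn, of which all but Igfbp6 are named here after their values were seen. All 9 were higher in control replicate 2 than in control replicate 1. That step was smallest by ratio for Gpm6a, from 1.89 to 2.30 FPKM, and largest for Dmkn, from 0.250 to 4.94 FPKM. Some were low: Muc16 averaged 0.0701 FPKM, and Slpi measured 0 and 0.0321 FPKM in CFZ hearts, against 0.389 and 3.09 FPKM in control hearts. In CFZ_EA, 17 of the 18 were higher than in CFZ (median 0.53) and 18 of 18 lower than in control (median -1.18), with 0 called by either tool.

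Genes of the retinoic acid pathway around Aldh1a2 were more often below than above control in CFZ. Of its 13 tested genes, 3 were above and 10 below control in CFZ (median log2 fold change -0.23), with 0 called. Without overlap between the libraries 6 were lower, against 25.8% of all tested genes, and 0 higher. In edgeR 2 were lower at an unadjusted p under 0.05, against 6.55%, and 0 higher. One of these, Crabp2, named after its values were seen, rested on control replicate 2. It measured 0 and 0.0206 FPKM in CFZ_EA hearts and 0 and 0 FPKM in CFZ hearts, against 0 and 3.45 FPKM in control hearts. No fit without control replicate 2 is given for this list. Dhrs3, which turns retinal back to retinol, was at -0.05 ± 0.11, and the receptors Rxra and Rxrb were at 0.15 ± 0.14 and -0.09 ± 0.18 (adjusted p of at least 0.752 for each, edgeR). Cyp26b1, which degrades retinoic acid and is named after its values were seen, measured 8.23 and 4.29 FPKM in CFZ_EA hearts and 16.5 and 0.563 FPKM in CFZ hearts, against 3.36 and 1.13 FPKM in control hearts. The 2 CFZ libraries were thus its extremes.

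Factors of the epithelial to mesenchymal transition, the process by which epicardial cells leave the layer, were mostly below control in CFZ. Of 10 such genes 2 were above and 8 below control in CFZ (median log2 fold change -0.54), with 0 called. In edgeR 4 were lower at an unadjusted p under 0.05, against 6.55% of all tested genes. Without overlap between the libraries 6 were lower, against 25.8%. Pdgfrb was at -0.10 ± 0.18, Tcf21 at -0.46 ± 0.16, Tgfbr3 at 0.10 ± 0.18 and Pdgfra at -0.61 ± 0.26 (adjusted p from 0.561 to 0.885, edgeR). Desmosomal and keratin-binding genes had 4 of 10 higher and 6 lower, with a median of -0.08 and 0 called. Of the 4 with the highest mean level, Dsp was at 0.13 ± 0.15, Jup at 0.20 ± 0.16, Pkp2 at 0.18 ± 0.15 and Plec at -0.11 ± 0.14 (adjusted p from 0.709 to 0.828, edgeR). Ppl, Evpl, Eppk1 and Pkp3, named after their values were seen, had low mean levels, from 0.0346 to 0.652 FPKM. They were at -1.11 ± 0.45, -0.90 ± 0.42, -1.48 ± 0.72 and -1.43 ± 0.87 (adjusted p from 0.582 to 0.646, edgeR). In CFZ_EA against CFZ, 7 of the 13 retinoic acid genes, 7 of the 10 transition factors and 5 of the 10 desmosomal genes were higher, with 0 called in each.

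Other keratins and uroplakins were few and low. Of 16 in the table only Krt222 averaged 1 FPKM or more. Krt222 measured 5.48 and 4.42 FPKM in CFZ_EA hearts and 5.37 and 4.38 FPKM in CFZ hearts, against 4.88 and 3.21 FPKM in control hearts, so its groups overlapped. Krt7, a further keratin of mesothelium named after its values were seen, measured 0.0732 and 0.254 FPKM in CFZ_EA hearts and 0.0693 and 0.0697 FPKM in CFZ hearts, against 0.462 and 1.76 FPKM in control hearts. Its groups stood in the same order as those of Krt19, without overlap. Of the uroplakins, Upk1a reached 0.140 and 0.363 FPKM in CFZ_EA hearts and 0.267 and 0.507 FPKM in CFZ hearts, against 0.409 and 0.370 FPKM in control hearts. CFZ overlapped both other groups, and both CFZ_EA values lay below control.

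Markers of other cell types were measured beside the 10 genes, because in bulk tissue fewer cells of a type and less RNA per cell cannot be told apart. Summed over 12 fibroblast markers the level was 831 and 837 FPKM in CFZ_EA hearts and 640 and 554 FPKM in CFZ hearts, against 792 and 1743 FPKM in control hearts. All 12 were lower in CFZ than in control, with a median log2 fold change of -1.32. Over 10 macrophage markers the sum was 241 and 283 FPKM in CFZ_EA hearts and 239 and 274 FPKM in CFZ hearts, against 316 and 923 FPKM in control hearts, and all 10 were lower in CFZ (median -0.95). Without overlap between the libraries, 12 of the 12 fibroblast and 7 of the 10 macrophage markers were lower in CFZ, against 25.8% of all tested genes. At an unadjusted p under 0.05 in edgeR, 10 fibroblast and 5 macrophage markers were lower, against 6.55%. None of the fibroblast and macrophage markers passed in edgeR, and DESeq2 called 3 of the 12 fibroblast markers lower in CFZ, against 1.03% of all tested genes. For the 3 keratins the sum was 1.15 and 3.90 FPKM in CFZ_EA hearts and 1.12 and 0.731 FPKM in CFZ hearts, against 8.11 and 23.8 FPKM in control hearts.

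Atrial markers were highest in CFZ_EA replicate 2. Their sum over 10 genes was 983 and 5728 FPKM in CFZ_EA hearts and 351 and 216 FPKM in CFZ hearts, against 2863 and 1625 FPKM in control hearts. Bmp10, a ligand of the right atrium named after its values were seen, measured 0.0117 and 55.7 FPKM in CFZ_EA hearts and 0.0942 and 0.0241 FPKM in CFZ hearts, against 22.6 and 0.167 FPKM in control hearts. The library with the most atrial RNA, CFZ_EA replicate 2, was thus the CFZ_EA library with the higher level of 9 of the 10 epicardial and mesothelial genes, whereas control replicate 1 had more atrial RNA than control replicate 2 and less of all 10. In CFZ against control 8 of the 10 atrial markers were lower, all 8 without overlap, against 25.8% of all tested genes. The median over the 10 atrial markers was -3.11, further from 0 than that of the 10 epicardial and mesothelial genes. DESeq2 called Dkk3 and Stard10 lower in CFZ, against 1.03% of all tested genes, and edgeR called 0. DESeq2 also called 3 atrial markers, Nppa, Dkk3 and Stard10, higher in CFZ_EA than in CFZ, against 0.421%, and edgeR 0. The part of fibroblast, macrophage and atrial RNA in the differences of the 10 genes was not tested.

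Ventricular markers summed to 25509 and 21896 FPKM in CFZ_EA hearts and 25230 and 26968 FPKM in CFZ hearts, against 24307 and 19139 FPKM in control hearts. Endothelial markers summed to 237 and 263 FPKM in CFZ_EA hearts and 269 and 264 FPKM in CFZ hearts, against 275 and 292 FPKM in control hearts. The median log2 fold change in CFZ against control was 0.18 over 8 ventricular, 0.09 over 10 endothelial, -0.01 over 10 smooth muscle and pericyte, -0.11 over 6 lymphatic and 0.27 over 8 adipocyte markers. Of the epithelia that share keratins with mesothelium, 10 of 13 general epithelial markers were found by symbol. Their sum was 0.772 and 0.437 FPKM in CFZ_EA hearts and 0.617 and 0.418 FPKM in CFZ hearts, against 1.02 and 1.50 FPKM in control hearts. Epcam, which most epithelia express and mesothelium usually lacks, was listed at 0 in 5 libraries and at 0.0312 FPKM in control replicate 2. For lung epithelium 4 of 11 markers were found by symbol, and 7, among them Sftpb, Sftpc, Scgb1a1 and Nkx2-1, were not. The sums of those found ran from 0.273 to 1.33 FPKM over the 6 libraries, highest in control replicate 2. There Napsa, named after its values were seen, measured 1.27 FPKM. For thymus 6 of 10 were found by symbol, and Foxn1, Psmb11, Rag2 and Krt5 were not. The sum of the 6 was 0.157 and 0.419 FPKM in CFZ_EA hearts and 0.350 and 0.212 FPKM in CFZ hearts, against 1.04 and 2.08 FPKM in control hearts. The 3 thymus markers tested were all lower in CFZ than in control (median log2 fold change -1.88), with 0 called in edgeR. DESeq2 called 1 of them lower, Krt14, named after its values were seen, against 1.03% of all tested genes. Krt14 measured 0.0298 and 0.0758 FPKM in CFZ_EA hearts and 0.0301 and 0 FPKM in CFZ hearts, against 0.136 and 1.47 FPKM in control hearts. Its high level was thus in control replicate 2 alone, where the thymus sum of 2.08 FPKM includes it. The part of thymus RNA in the differences of the 10 genes was not tested.

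**Figure D4:**
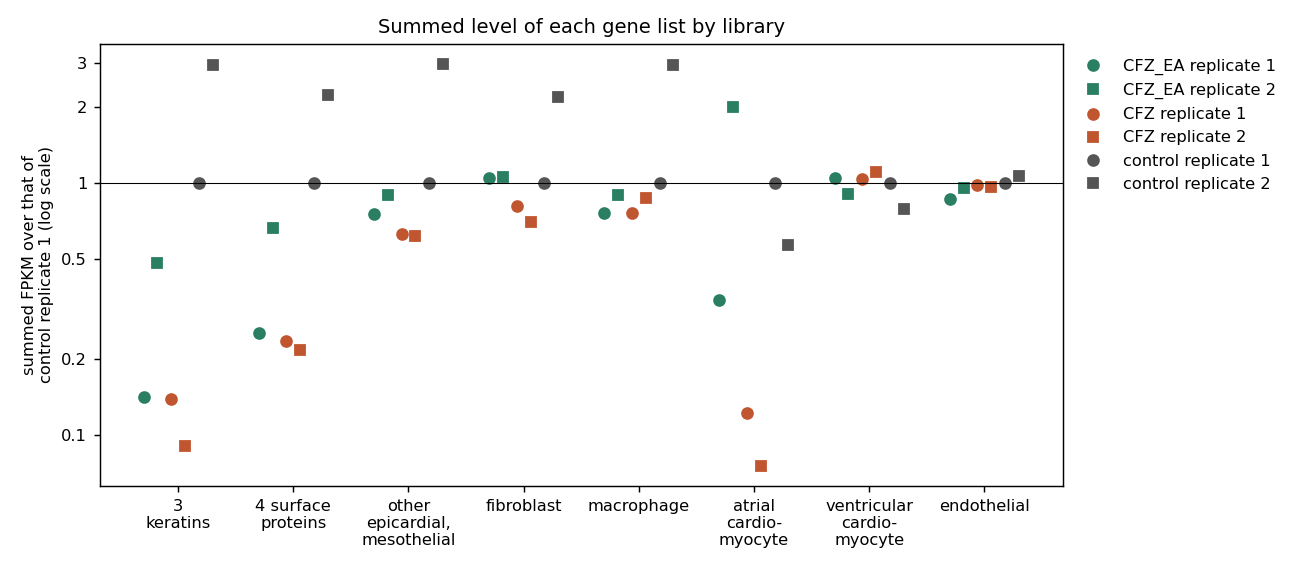
Summed FPKM of each gene list divided by its value in control replicate 1 (log axis), with 1 point per library. The 3 keratins lie at 0.0901 to 0.139 times in CFZ and 2.93 times in control replicate 2, fibroblast and macrophage markers at 0.700 to 0.869 times in CFZ, and endothelial markers between 0.860 and 1.06 times in all libraries.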

How the data were processed

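Messenger RNA of 6 mouse heart libraries, 2 per group, was selected on oligo(dT) in 2 rounds and sequenced in pairs of 150 base reads from a kit that marks strand with dUTP, per the labels' protocols. GRCm38, HISAT2 2.0.4, StringTie 1.3.4d and cutadapt 1.9 are listed in the submitters' processing notes, without roles. Which annotation was used, and whether counting used strand, is not given in the sources used here. The authors deposited FPKM and a count for each library, per the file headers. The deposited counts were taken as estimated counts and rounded. Multiples of 4 made up 42.2% to 43.3% of the counts from 1 to 20 (25% would be even), so 1 count need not be 1 read.

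Genes with a mean count of at least 20 were tested (15690), with TMM factors (0.940 to 1.10), edgeR 4.0.16 quasi-likelihood on all 6 libraries (3 residual degrees of freedom) and Benjamini-Hochberg adjustment over all tested genes at 0.05. A filter on mean FPKM of at least 1 leaves out Wt1, Lrrn4 and Tbx18. Alternatives were DESeq2 1.42.0, limma 3.58.1 on log2(FPKM + 1) or log2(FPKM + 0.1), other scalings and filters, the compared groups alone, a replicate block, counts divided by 4, and each library left out. No 2 libraries were identical. Without molecular identifiers, reads are not independent molecules.

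The 10 genes and the marker lists were chosen with earlier results of these data known, so no p over a list is given. Named beside the 10 were, of each pathway list, the 4 genes with the highest mean FPKM and any that passed, other keratins and uroplakins with a mean FPKM of at least 1, and the 6 genes with the most similar profile on log2 CPM; others are said to be chosen after their values were seen, and 1 gene that this rule names is not reported here. Gene IDs matched GENCODE M21 on GRCm38, and promoter windows are RefSeq's on GRCm38.p6.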

Additional observations from a re-analysis of the deposited data

How the results depend on the processing

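All 10 genes were lower in CFZ than in control under each of 18 alternatives (7 of 7 tested under the FPKM filter). Their median log2 fold change in CFZ against control was -1.72 with limma on log2(FPKM + 1). In CFZ_EA against CFZ the median was 0.32 with limma on log2(FPKM + 1), 0.13 without control replicate 2 and CFZ_EA replicate 2 together, and from 0.13 to 1.69 with 1 library left out. Scaling by library totals alone shifted the median of all genes in CFZ against control to -0.11.

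The number of genes called in CFZ against control, 4 in edgeR, was 206 with DESeq2, 2 with library totals alone, limma on log2(FPKM + 1) or the replicate block, 1 with the 2 compared groups alone or counts divided by 4, and 1 to 349 with 1 library left out, the 349 without control replicate 1. In CFZ_EA against CFZ, with 2 called, it was 86 with DESeq2, 4 with limma on log2(FPKM + 0.1), 1 with counts divided by 4, and 1 to 7 with 1 library left out. In CFZ_EA against control, with 0 called, it was 65 with DESeq2, 1 with limma on log2(FPKM + 1), and 0 to 199 with 1 library left out.

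Signs turned in the following values. In CFZ_EA against CFZ, Wt1 was 0.016 with library totals alone, 0.0016 with upper quartile scaling, 0.0080 and 0.028 with limma at pseudocounts of 1 and 0.1, 0.0021 with the compared groups alone, 0.0020 with the replicate block, 0.0067 with counts divided by 4, and -0.21 to 0.23 with 1 library left out. Krt18 ran from -0.44 to 1.78, Lrrn4 from -0.47 to 1.61 and Aldh1a2 from -0.48 to 0.33 with 1 library left out, and without control replicate 2 and CFZ_EA replicate 2 together Krt18 was -0.43 and Lrrn4 -0.47. Under that setting Tbx18 was 0.20 in CFZ_EA against control. The cause was not tested. The replicate numbers pair no samples by the labels (correlation of deviations -0.07, 0.07 and -0.03), and the block changed no call of the 10 genes. With 2 libraries a group and 16 and 18 counts of Krt8 in CFZ, depth and replicate number both limit precision.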
